A study of Mus musculus with 4 samples.

Results

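Tuft cells are rare chemosensory cells of the intestinal epithelium. They detect metabolites of microbes and parasites through a taste-like signalling cascade, release the cytokine Il25 together with leukotrienes and prostaglandins, and so engage type 2 immunity. Their formation depends on the transcription factor Pou2f3, and Dclk1 is widely used as their marker in normal mucosa and in intestinal adenomas. The 10 genes described here are markers of intestinal tuft cells, chosen by name with earlier results of these data known. In the capitals of the deposited table they are POU2F3, GFI1B, TRPM5, DCLK1, AVIL, ALOX5AP, HPGDS, IL25, SH2D6 and LRMP, written below as mouse symbols. All 10 had a row among the 29871 distinct rows of that table.

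RNA came from adenomas of the small intestine in mice that all carried the APC Min/+ genotype, a truncating allele of the tumour suppressor Apc. There were 2 libraries with that allele alone (control) and 2 from mice that were also PAF KO (knockout). The abbreviation PAF is read here as the PCNA-associated factor, which is background knowledge and not in the labels. Its row (2810417H13Rik) stood at 17.9 and 17.8 FPKM without the knockout and at 4.13 and 11.4 with it. FPKM counts fragments relative to transcript length and to all mapped fragments of the library. Age, strain, the altered part of the gene and the number of animals or adenomas behind a library are not given in the labels, so p-values measure only the spread between these samples, which may be technical.

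Low values in the table put the depth at about 12900000 and 17500000 fragments for the controls and 15300000 and 24100000 for the knockouts. The control libraries were nearly alike, with a median absolute log2 difference of 0.0882 over the 13716 rows that had a mean of at least 1 FPKM and were tested, against 0.488 between the knockout libraries. Knockout library 2 stood apart on the first principal component (64.3% of the variance) and differed in sex: it held Xist at 46.4 FPKM and Eif2s3y at 0, while the other 3 libraries held Eif2s3y at 26.0 to 31.7 FPKM. Each value below is therefore given for the knockout libraries separately. In bulk tissue, fewer tuft cells and less RNA per tuft cell cannot be told apart.

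No tuft cell gene passed the test between the genotypes, and 5 of the 8 with a mean of at least 1 FPKM lay below both controls in knockout library 1 and above both in knockout library 2, where 22.6% of all tested rows did. Of those 5, Alox5ap and Hpgds were no longer below both controls in knockout library 1 once the libraries were centred on their medians. Knockout library 1 was low for most of the genes, least so for Pou2f3, Hpgds and Alox5ap. Knockout library 2 was high for Lrmp, Hpgds and Dclk1. Among the same 8 genes, only Avil and Sh2d6 were lower than both controls in both knockouts, where 30.2% of all tested rows were. By limma on log2(FPKM + 1), with Benjamini-Hochberg adjustment over all 13716 rows, 0 of the 8 passed an adjusted p of 0.05, where 0.0729% of all rows (10 rows) passed. At an unadjusted p under 0.05, 1 of the 8 (Avil) passed, where 13.2% of all rows did. Log2 fold changes and log2 differences below use log2(FPKM + 1), so those of weakly expressed genes come out too small, while percentages and ratios given as times or -fold are of FPKM itself.

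**Figure D1:**
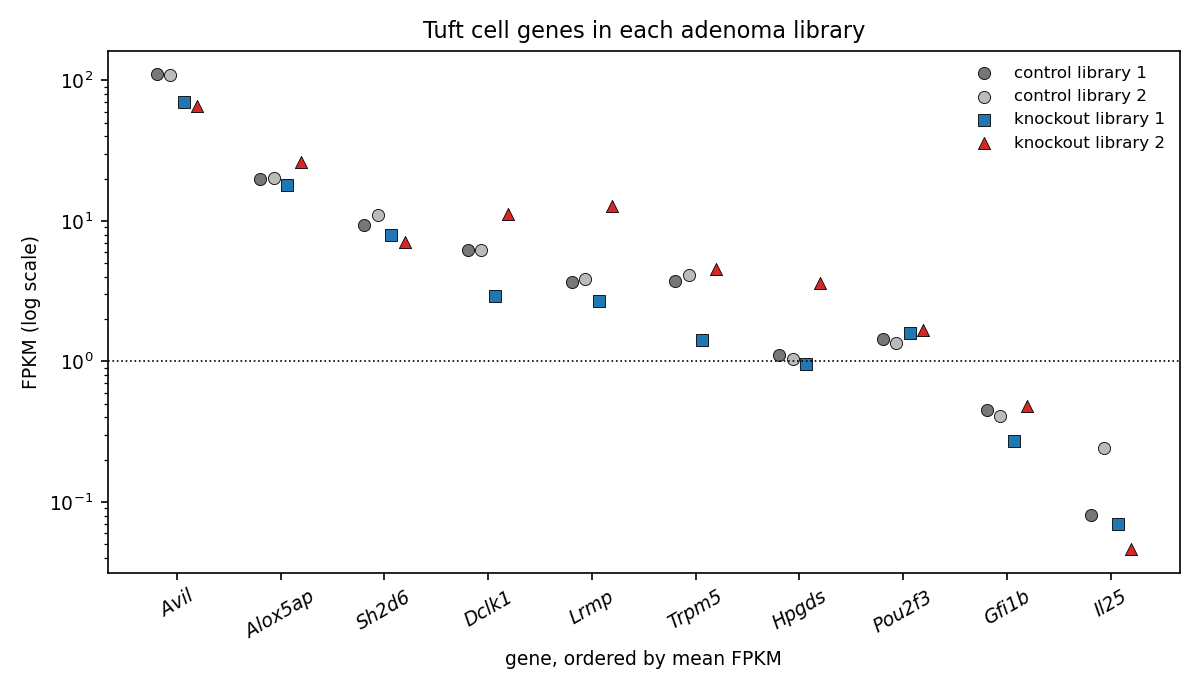
FPKM (log axis) of each of the 10 tuft cell genes in each of the 4 libraries, with genes ordered by their mean. Circles are controls, the square is knockout library 1 and the triangle knockout library 2, and the dotted line marks 1 FPKM. The controls nearly coincide except at Il25. The square and triangle lie on opposite sides of them for Dclk1, Lrmp, Trpm5, Hpgds, Alox5ap and Gfi1b.

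Pou2f3, the octamer-binding transcription factor that specifies tuft cells, stood at 1.46 and 1.34 FPKM in the control libraries, at 1.59 in the first knockout library and at 1.67 in the second. Both knockout values lay above both controls, but the log2 fold change of 0.13 (SE 0.208, n = 2 per group; limma adjusted p = 0.755) was smaller than its error. Pou2f3 was the only one of the 10 genes above both controls in both knockouts, where 21.5% of all tested rows were. Gfi1b, a zinc finger repressor that is also active in megakaryocytes and erythroid cells, stood at 0.453 and 0.410 FPKM in the control libraries, at 0.274 in the first knockout library and at 0.478 in the second. These values correspond to about 7.6 to 21.0 fragments per library, and the gene was below the level at which rows were tested. Without that limit its log2 fold change was -0.06 (SE 0.106; limma adjusted p = 0.801).

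Octamer letters were searched in promoter windows because Pou2f3 belongs to the POU factors, which bind the octamer ATGCAAAT. Windows of 300 bases (250 before the transcript start and 50 after it) came from RefSeq, assembly GRCm38.p6, whereas the expression table was made on mm9, so they were matched by gene symbol only. Of the 10 genes, 6 matched, with 7 windows. Pou2f3, Il25, Alox5ap and Lrmp are not among them. The full octamer stood on either strand in 1 of the 7 windows, that of Hpgds, and in 1.74% of all 32851 windows. The shorter string ATGCAAA, which the octamer contains, stood in 2 of the 7 windows, Hpgds and Avil, and in 4.63% of all windows. The windows of these 2 genes are shown 5′ to 3′ on the strand of the gene, because they are the members with such letters and they differ in expression, Hpgds being highest in knockout library 2 and Avil lowest there. Capitals mark the matches, and TTTGCAT is the shorter string read on the other strand. The Hpgds match starts at position -174 and the Avil matches at -115 and -15, counted back from the transcript start. A match is a run of letters and not a measured binding site. The Hpgds window is chr6:65144681-65144980, minus strand, and the Avil window is chr10:127000459-127000758, plus strand.
Hpgds: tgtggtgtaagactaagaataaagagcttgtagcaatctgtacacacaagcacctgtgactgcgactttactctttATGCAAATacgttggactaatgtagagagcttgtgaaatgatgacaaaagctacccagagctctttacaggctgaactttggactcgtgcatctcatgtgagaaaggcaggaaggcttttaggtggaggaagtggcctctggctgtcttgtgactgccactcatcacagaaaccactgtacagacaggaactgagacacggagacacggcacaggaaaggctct
Avil: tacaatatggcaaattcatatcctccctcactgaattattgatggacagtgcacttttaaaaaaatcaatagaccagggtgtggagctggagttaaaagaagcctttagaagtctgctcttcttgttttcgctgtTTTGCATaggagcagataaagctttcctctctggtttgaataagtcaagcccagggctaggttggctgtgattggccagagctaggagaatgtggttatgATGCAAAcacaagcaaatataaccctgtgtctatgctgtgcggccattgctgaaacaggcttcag

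Trpm5, the cation channel that opens on calcium release in the taste cascade, stood at 3.77 and 4.09 FPKM in the control libraries, at 1.42 in the first knockout library and at 4.54 in the second. Knockout library 1 held 36.2% of the control mean, the lowest share among the 8 tested genes, and knockout library 2 held 116%. The log2 fold change over both was -0.43 (SE 0.468; limma adjusted p = 0.665). Of the cascade's other parts, Plcb2, the phospholipase upstream of the channel, stood at 1.65 and 1.19 FPKM without the knockout and at 0.531 and 2.38 with it, the same arrangement as Trpm5. Itpr3, the inositol trisphosphate receptor that releases the calcium, was lower in both knockouts, at 47.4 and 43.3 FPKM against 32.5 and 29.9 (log2 fold change -0.53, SE 0.161; limma adjusted p = 0.340). The G protein subunit Gng13 had the reverse order of Trpm5 in the knockouts, at 3.91 and 2.35 FPKM in the control libraries, 5.20 in the first knockout library and 2.17 in the second. Gnat3, the taste G protein, was at most 0.284 FPKM and listed at 0 in knockout library 1. Sucnr1, the succinate receptor of tuft cells, stood at 1.16 and 1.37 FPKM in the control libraries, at 0.261 in the first knockout library and at 1.52 in the second.

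Dclk1, a microtubule-associated kinase, stood at 6.20 and 6.19 FPKM in the control libraries, at 2.92 in the first knockout library and at 11.2 in the second. The knockout libraries differed from each other by 3.83-fold and lay on either side of the controls. Their mean was close to that of the controls, with a log2 fold change of -0.06 (SE 0.613; limma adjusted p = 0.967). Taken with 1 knockout library at a time, it was -0.88 for library 1 (SE 0.0916; limma adjusted p = 0.0291) and 0.76 for library 2 (SE 0.0852; adjusted p = 0.00985). In such a fit the lone knockout library is assumed to vary as little as the controls do between themselves, and 20.7% of all rows pass for library 1 and 61.2% for library 2.

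Avil encodes advillin, an actin-binding protein of the villin family that tuft cells share with sensory neurons. It had the highest level of the 10 genes, at 110.3 and 110.0 FPKM in the control libraries, 69.8 in the first knockout library and 66.0 in the second. Both knockout libraries lay below both controls and close to each other, with 63.4% and 59.9% of the mean control level. Its log2 fold change was -0.69 (SE 0.159; limma adjusted p = 0.294, unadjusted p = 0.0136) and did not pass. Over the alternative scalings, pseudocounts and filters it ran from -0.71 to -0.63, and it was -0.65 with knockout library 1 alone and -0.73 with library 2 alone. In GENCODE M21, exons of Avil overlap those of Tsfm on the opposite strand, and no strand setting is stated for the counting, so fragments of the pair cannot be told apart there. Exons of Dclk1 and Alox5ap likewise overlap genes on the opposite strand there (Gm21954 and Gm42609, and Gm19719), whose levels are not analysed here. Tsfm, a mitochondrial translation factor, stood at 17.1 and 14.9 FPKM without the knockout and at 22.8 and 25.6 with it, a difference in the other direction.

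Alox5ap and Hpgds belong to the lipid mediator arm of tuft cells, and mast cells and macrophages express them too. Alox5ap, which presents arachidonic acid to 5-lipoxygenase for leukotriene synthesis, stood at 19.9 and 20.2 FPKM in the control libraries, at 18.2 in the first knockout library and at 26.3 in the second. Its log2 fold change was 0.12 (SE 0.237; limma adjusted p = 0.801). Hpgds, a prostaglandin D2 synthase, stood at 1.11 and 1.04 FPKM in the control libraries, at 0.959 in the first knockout library and at 3.64 in the second. Knockout library 2 thus held 3.38 times the control mean while library 1 was within 0.083 of it on the log2 scale, and over both the log2 fold change was 0.54 (SE 0.495; limma adjusted p = 0.619).

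Other genes of eicosanoid synthesis and response, listed beside these, passed in 0 of 10 tested cases by limma, where 0.0729% of all rows passed. At an unadjusted p under 0.05, 2 of the 10 passed, 1 in each direction, where 13.2% of all rows did. Ptgs2, the inducible cyclooxygenase, stood at 5.71 and 5.04 FPKM without the knockout and at 29.8 and 14.9 with it (log2 fold change 1.79, SE 0.381; limma adjusted p = 0.281). Hpgd, which inactivates prostaglandins, read 40.4 and 36.2 FPKM against 21.1 and 26.2, and Pla2g4a, which frees arachidonic acid, read 5.39 and 4.75 against 8.40 and 25.9. Ptgs1, the cyclooxygenase that tuft cells express, stood at 13.4 and 13.7 FPKM in the control libraries, at 8.17 in the first knockout library and at 15.2 in the second. That arrangement is the one seen for Trpm5 and Dclk1. The leukotriene C4 synthase Ltc4s had the opposite one, at 10.1 and 9.72 FPKM in the control libraries, 11.5 in the first knockout library and 3.64 in the second. The list's median log2 fold change was 0.17, beside 0.0035 over all tested rows. It turned to -0.071 over its genes with a mean of at least 5 FPKM, and was 0.095 without knockout library 1 and 0.083 without knockout library 2.

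Il25, the tuft cell cytokine that activates group 2 innate lymphoid cells, stood at 0.0801 and 0.241 FPKM in the control libraries, at 0.0691 in the first knockout library and at 0.0463 in the second. At the estimated depth these values are about 1.1, 4.5, 1.1 and 1.2 fragments, so a difference in Il25 was not detectable at this depth. Its receptor Il17rb, which tuft cells carry as well, stood at 1.56 and 1.53 FPKM without the knockout and at 1.53 and 2.54 with it. Of the type 2 immune genes listed beside it, 16 of 22 found were tested. By limma 0 of the 16 passed, where 0.0729% of all rows did. At an unadjusted p under 0.05, 4 of the 16 passed, 2 higher and 2 lower, where 13.2% of all rows did. Il33, an alarmin of epithelial and stromal cells, read 38.6 and 37.5 FPKM against 103 and 69.3 (log2 fold change 1.13, SE 0.256; limma adjusted p = 0.291). Arg1, an arginase of type 2 macrophages and innate lymphoid cells, read 89.2 and 86.6 against 17.5 and 31.0 (log2 fold change -1.87, SE 0.324; limma adjusted p = 0.248), and the chemokine Ccl24 read 26.9 and 28.4 against 15.5 and 16.7. Il13, the cytokine that expands tuft and goblet cells, stood at 0.824 and 1.55 FPKM without the knockout and at 0.296 and 0.823 with it, a low level. Retnlb, a goblet cell product induced by Il13, read 27.3, 27.1 and 27.5 FPKM in both controls and knockout library 1 and 712 in knockout library 2. Il13 and Retnlb were chosen after their values were seen.

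Sh2d6, an adapter-like protein with an SH2 domain, stood at 9.43 and 11.0 FPKM in the control libraries, at 7.91 in the first knockout library and at 7.07 in the second. Both knockouts were below both controls, with a log2 fold change of -0.40 (SE 0.175; limma adjusted p = 0.429) that was about 2 times the difference of 0.20 between the control libraries. Lrmp, an endoplasmic reticulum membrane protein first described in lymphoid cells, stood at 3.67 and 3.85 FPKM in the control libraries, at 2.68 in the first knockout library and at 12.8 in the second. Knockout library 2 held 3.42 times the control mean and 4.79 times the level of knockout library 1, the widest gap between knockouts among the 10 genes. Over both knockouts the log2 fold change was 0.58 (SE 0.711; limma adjusted p = 0.692). Its exons overlap those of Casc1 in GENCODE M21, whose row was at most 0.206 FPKM.

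Read against the controls, 7 of the 8 tested genes were below both in knockout library 1, where 56.2% of all tested rows were. With the libraries centred on their medians this became 5 of 8, without Alox5ap and Hpgds, where 41.6% of all rows were. In knockout library 2, 6 of the 8 were above both controls, where 51.3% of all rows were. Without centring, the combination of low in library 1 and high in library 2 held for 5 of the 8, where 22.6% of all rows showed it. Alox5ap and Hpgds are among those 5. Lower in both held for 2 of the 8, where 30.2% did. The difference between the knockouts was at least 1 on the log2 scale, with library 2 higher, for 4 of the 8 (Lrmp, Dclk1, Hpgds and Trpm5), where 11.3% of all rows reached that. The median log2 difference from the controls was -0.35 in library 1 and 0.27 in library 2, beside -0.11 and 0.087 over all tested rows. Between the control libraries, the 8 genes differed by a median of 0.053. Over both knockouts the median log2 fold change of the 8 was 0.032, beside 0.0035 over all tested rows, and it was -0.058 over the 5 genes with a mean of at least 5 FPKM.

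**Figure D2:**
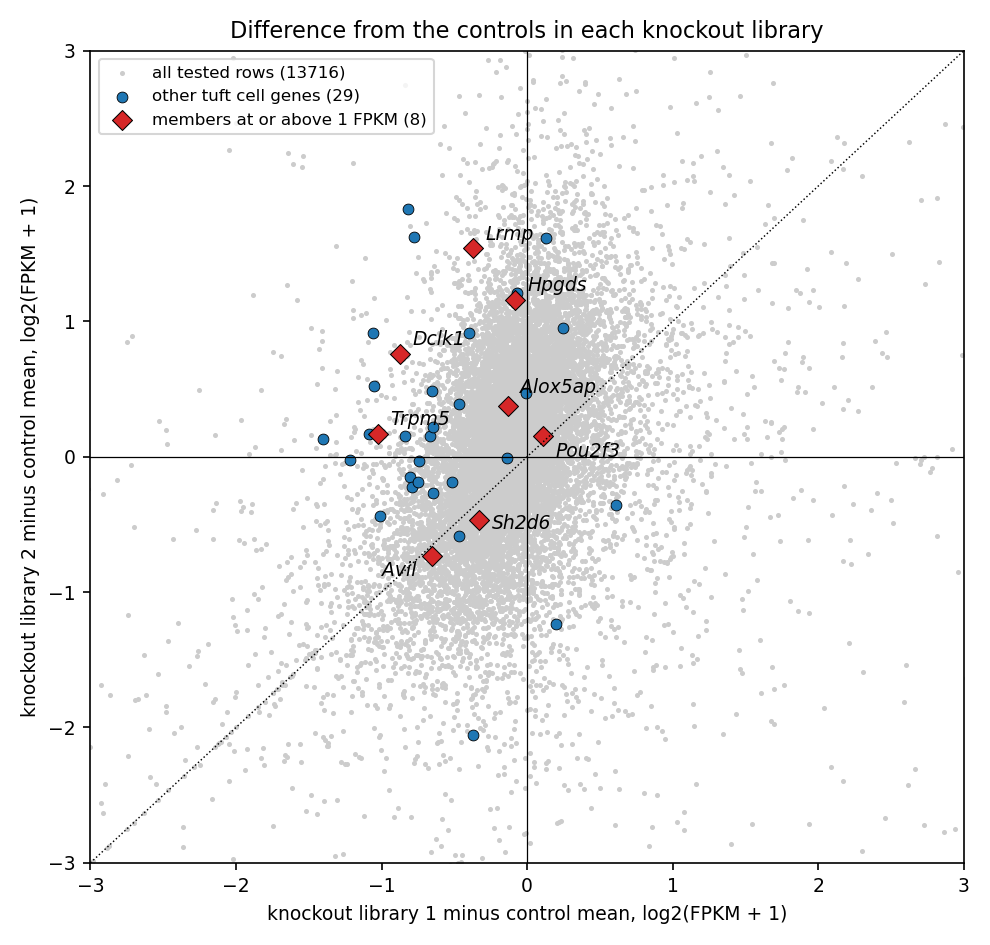
Difference from the control mean in knockout library 1 (horizontal) against that in knockout library 2 (vertical), both on log2(FPKM + 1), for all tested rows (grey; 306 rows beyond 3 are not drawn), 29 other tuft cell genes (circles) and the 8 members (diamonds). Points on the dotted line have the same difference in both libraries: Avil, Sh2d6 and Pou2f3 lie near it, and Lrmp, Hpgds, Dclk1 and Trpm5 lie well above it.

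A wider list of other genes reported in tuft cells held 36 symbols, with the same gene entered as Siglecf and as Siglec5. It had 35 rows, 29 of them with a mean of at least 1 FPKM. Of these 29, 25 were below both controls in library 1 (56.2% of all rows), and 22 with the libraries centred on their medians (41.6% of all rows). Their median difference was -0.65 in library 1 and 0.15 in library 2. In library 2, 16 of the 29 were above both controls (51.3% of all rows), and 14 were low in library 1 and high in library 2 (22.6%). Below both controls in both knockouts were 8 of the 29 (30.2% of all rows). By limma, 0 of the 29 passed in either direction, where 0.0729% of all rows did. At an unadjusted p under 0.05, 1 of the 29 (Itpr3) passed, where 13.2% of all rows did. Nebl, an actin-associated protein, was lower in both knockouts, at 4.78 and 4.67 FPKM against 1.84 and 3.22 (log2 fold change -0.73, SE 0.271; limma adjusted p = 0.389), as was the phospholipase Plcg2 at 10.8 and 10.4 against 6.41 and 8.65.

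The 2 widest gaps between the knockouts among these 29 genes on the log2 scale were those of Rgs13 and Fyb, both also expressed by leukocytes. Rgs13, a regulator of G protein signalling, stood at 4.0 and 5.57 FPKM in the control libraries, at 2.25 in the first knockout library and at 19.4 in the second. The adapter Fyb stood at 6.42 and 6.09 FPKM in the control libraries, at 3.23 in the first knockout library and at 21.4 in the second. Kctd12, which came next, read 10.3 and 9.84, then 4.30 and 19.8. Siglecf (row Siglec5), a sialic acid-binding lectin of tuft cells and eosinophils, read 3.90 and 3.93 FPKM in the control samples, 0.860 in library 1 and 4.38 in library 2. Its difference of -1.40 in library 1 was the lowest of the 29 on the log2 scale. Ildr1 stood at 15.9 and 16.1 FPKM in the control libraries, at 6.33 in the first knockout library and at 15.7 in the second.

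**Figure D3:**
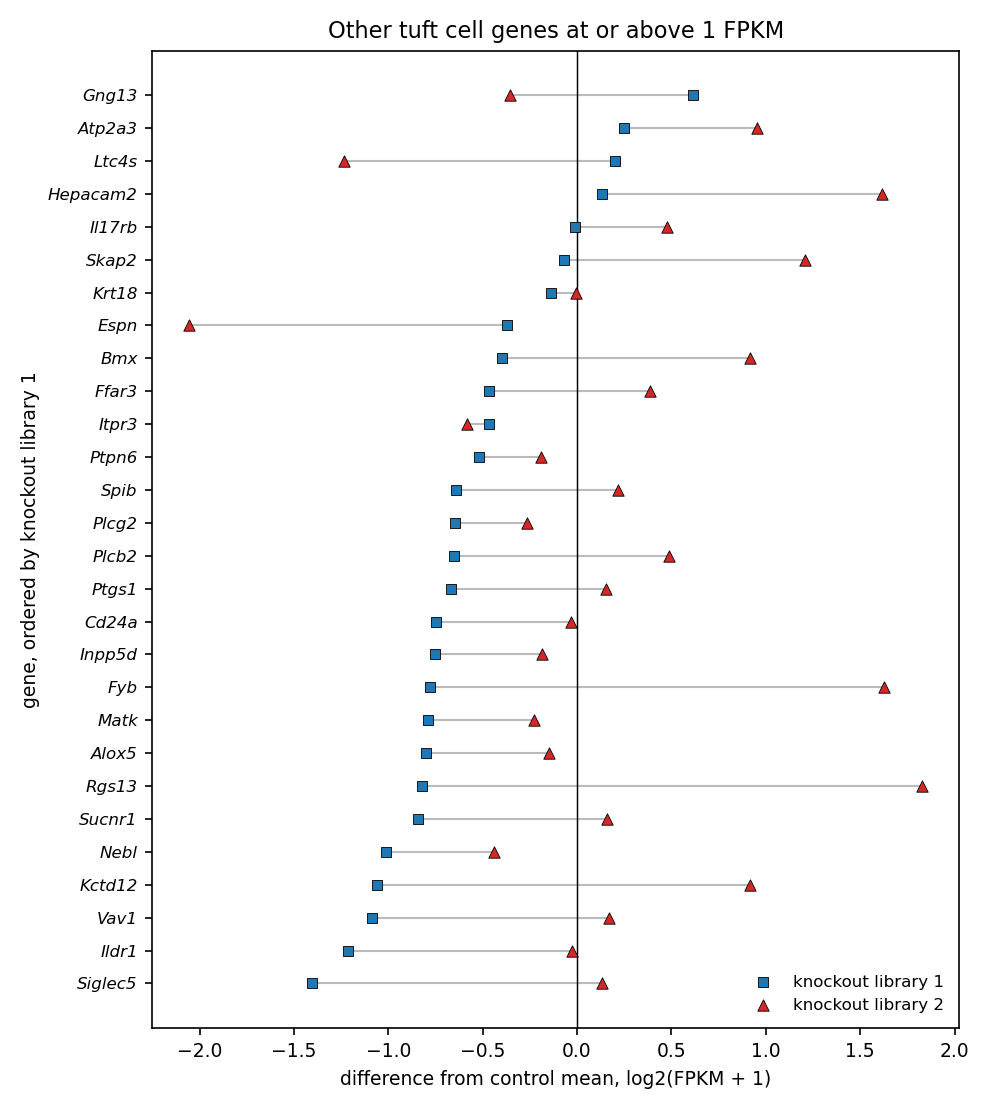
Difference from the control mean, on log2(FPKM + 1), of 28 of the 29 other tuft cell genes with a mean of at least 1 FPKM, in knockout library 1 (squares) and knockout library 2 (triangles), ordered by library 1. Of the squares, 24 belong to genes below both controls, while the triangles spread to both sides of 0.

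Summed markers of macrophages, the B lineage, smooth muscle and enteric neurons and glia were highest in knockout library 2. Macrophage markers summed to 238 and 242 FPKM in the control samples, then 198 and 418 in knockout libraries 1 and 2. In library 2, 10 of 11 were above both controls, where 51.3% of all tested rows were, and in library 1, 7 of 11 were below both, close to the 56.2% of all rows. The B lineage markers summed to 245 and 234 FPKM, then 197 and 857, mostly from Igj (now Jchain) of antibody-secreting cells at 839 FPKM in library 2. Smooth muscle markers summed to 230.1 and 229.7 FPKM, then 273 and 821, with 9 of 9 above both controls in library 2. In both knockouts 7 of 9 were above both controls, where 21.5% of all tested rows were. Enteric neuron and glia markers summed to 18.0 and 16.7 FPKM, then 17.0 and 31.4, with 4 of the 5 tested above both controls in library 2 and 3 of the 5 in both knockouts.

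Mast cell markers summed to 2881 and 3278 FPKM in the control samples, then 1448 and 1197, with 9 of 12 below both controls in both knockouts, where 30.2% of all rows were. Megakaryocyte and erythroid markers summed to 73.4 and 65.9 FPKM, then 87.6 and 73.4, with 4 of the 7 tested below both controls in both knockouts and 2 of the 7 above. Gata1, a factor of that lineage and of mast cells, read 2.35 and 1.5 against 0.399 and 0.285, and the globin gene Hbb-b1 read 33.8 and 26.5 against 48.8 and 42.5. Neutrophil markers summed to 285 and 349 FPKM, then 456 and 258, with 4 of the 6 tested above both controls in both knockouts, where 21.5% of all rows were. The median log2 difference of the 6 was 1.87 in library 1 and 1.44 in library 2, so the low sum in library 2 did not follow most of these markers. Epithelial genes summed to 8166 and 8072 FPKM, then 9070 and 8919, and had a median log2 difference of -0.043 in library 1 and -0.098 in library 2. Enteroendocrine markers, of another secretory epithelial lineage, had medians of 0.12 and 0.36, but a median log2 fold change over both knockouts of -0.026. Of the 7 tested, 3 were above both controls in both knockouts and 2 were below. By limma 0 genes of any of these lists passed, where 0.0729% of all rows did. The part of the other cells in the values of Lrmp, Hpgds, Alox5ap and Dclk1 was not tested.

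**Figure D4:**
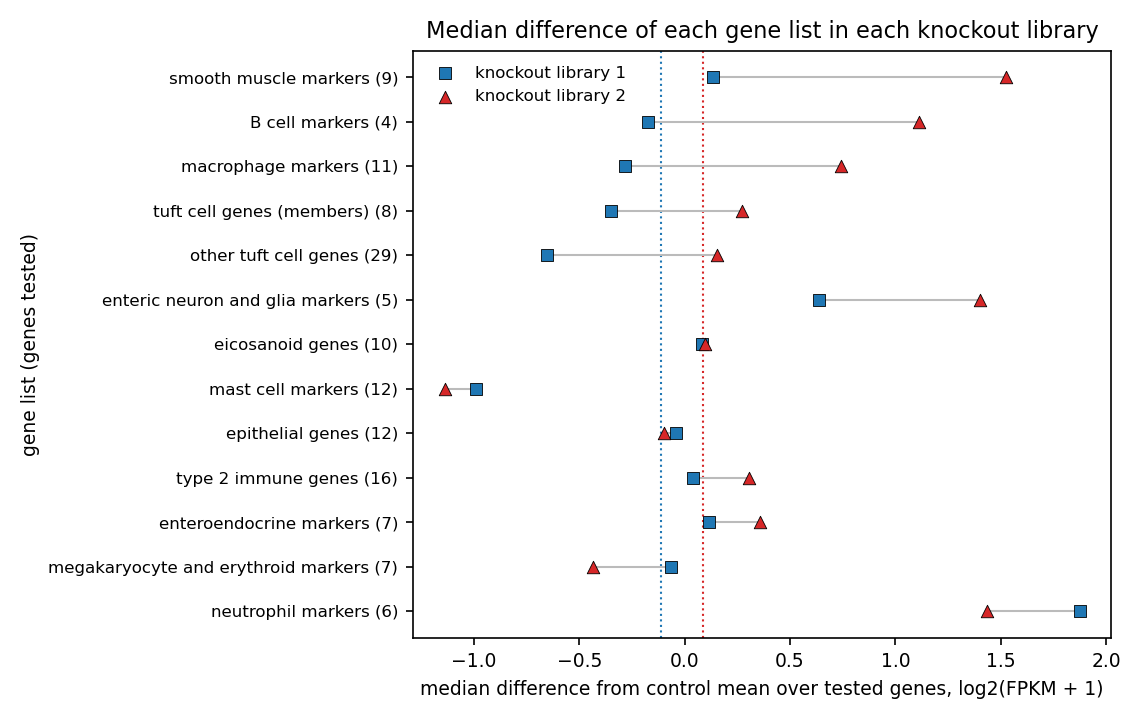
Median difference from the control mean, on log2(FPKM + 1), over the tested genes of each list in knockout library 1 (squares) and knockout library 2 (triangles), ordered by the median gap between the knockouts. Dotted lines mark the medians over all tested rows, -0.11 and 0.087; both tuft lists lie left of the first line in library 1, as do macrophage, B cell and mast cell markers.

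The protein-coding rows outside the list whose profile over the 4 libraries lay nearest to the median of the 8 tested tuft cell genes were Lpcat1, Thap1, Exoc8, Dstyk and Nostrin, at Euclidean distances of 0.0134 to 0.0351 on the log2 scale. Lpcat1 stood at 4.28 and 4.29 FPKM in the control libraries, at 3.12 in the first knockout library and at 5.44 in the second. Likeness over 4 libraries is weak: 565 of 12647 tested protein-coding rows lay within 0.2.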

How the data were processed

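RNA-seq of 4 small-intestinal adenoma libraries was analysed from 1 deposited table of FPKM values per gene and library, made by the authors. Per the submitters' processing notes, TopHat2 and Cuffdiff were used with mm9. Their versions and settings, the strand handling and the annotation are not given in these sources. The table had 29955 rows; for 84 repeats of a symbol only the entry of higher mean stayed. The test was limma 3.58.1 (R 4.3.3), 2-sided, on log2(FPKM + 1) with a variance trend. It covered the 13716 rows whose mean reached 1 FPKM, with Benjamini-Hochberg adjustment over all of them. FPKM are already scaled for depth and length, so no count test was used. The limma fit was tested on simulated data, in which all 4 libraries had the same spread per row. In the real data the knockout libraries differed more than the controls did.

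Depth was estimated from FPKM multiplied by length, taking the mode of its low values as 1 fragment, over 2412 genes with 1 transcript of at least 1000 bases (GENCODE M21). Fragments per gene follow from that estimate and the longest transcript. Taken as fragments, 15.7% of such genes with 200 to 2000 fragments differed between the control libraries beyond the 5% point of a chi-square test, and 78.0% between the knockout libraries, and from 2000 to 100000 fragments these shares were 34.6% and 88.6%. The controls thus differed much less than the knockouts, though by more than counting noise for abundant genes; whether they are technical repeats is not given. They were kept as 2 samples, with their mean as 1 sample as an alternative.

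The members and all lists were chosen with earlier results of these data known. Genes that could be named, of which the marker lists show only some, were the 10 members, the PAF row and the 5 nearest profiles. So could, in each list, the 3 tested genes of smallest p, and other tuft cell genes with a mean of at least 1 FPKM. Other genes, such as Gnat3, Tsfm and Casc1, were chosen after their values were seen. Alternatives were pseudocounts of 0.1 and 0.01, no filter, a filter at 5 FPKM, quantile scaling, median centring, centring on epithelial genes, no variance trend, a replicate block and leaving out each library. Values of single genes in some lists are not reported here.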

Additional observations from a re-analysis of the deposited data

How the results depend on the processing

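Over 13716 rows, limma called 10 rows; it called 4 with no filter, 0 with the control libraries averaged as 1 sample (260 at an unadjusted p under 0.05; chosen after seeing the data), and 0 to 8397 with a library left out (0 without either control, 8397 without knockout replicate 1 and 2833 without knockout replicate 2). The 0 calls had 251 and 274 rows at an unadjusted p under 0.05. None of the 8 tested tuft cell genes passed in any fit with both knockout libraries. A fit with 1 knockout library assumes that it varies as little as the controls do. Large shares of all rows pass in such fits, so only effect sizes are given. Without knockout library 1, log2 fold changes were 1.54 (Lrmp), 1.16 (Hpgds), 0.76 (Dclk1), 0.38 (Alox5ap), 0.17 (Trpm5), 0.15 (Pou2f3), -0.47 (Sh2d6) and -0.73 (Avil). Without knockout library 2 they were -0.37 (Lrmp), -0.083 (Hpgds), -0.88 (Dclk1), -0.13 (Alox5ap), -1.02 (Trpm5), 0.11 (Pou2f3), -0.33 (Sh2d6) and -0.65 (Avil).

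The direction of Avil, Sh2d6 and Pou2f3 was kept in every alternative in which each was tested. Dclk1 changed sign under quantile scaling (0.0057). With a library left out its log2 fold change ran from -0.88 to 0.76, that of Trpm5 from -1.02 to 0.17, of Alox5ap from -0.13 to 0.38, of Lrmp from -0.37 to 1.54 and of Hpgds from -0.083 to 1.16. Among the markers, Pou2af1 ran from -0.058 to 0.82 and Igj from -0.29 to 1.85. The number of tuft cell genes above both controls in knockout library 2 was 3 of 5 with the filter at 5 FPKM, where fewer genes are tested and 51% of all rows were above both.

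The deviations of same-numbered libraries from their group means were only weakly correlated across rows (-0.115). A replicate block gave 13 calls, as did the block with the numbers crossed, and changed no call among the tuft cell genes. The labels do not say that numbers pair libraries. Depth limits Il25 and Gfi1b, at about 1.1 to 4.5 and 7.6 to 21.0 fragments.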
